A study of Mus musculus with 12 samples.

Results

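The 10 genes described here are FOXO factors and genes known for their expression in quiescent cells. They were taken as a list of symbols, by a rule that names no measured value, although earlier results of these data were known when the list was made: Foxo1, Foxo3, Foxo4, Ccng2, Txnip, Arrdc4, Pik3ip1, Bcl6, Sesn1 and Sesn3. All 10 were matched to an Ensembl identifier among the 49671 genes counted in each library, and all 10 passed the filter on low counts.

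FOXO proteins are forkhead transcription factors that act downstream of growth factor receptors. When serum activates PI3K and AKT, AKT phosphorylates FOXO proteins, which bind 14-3-3 proteins and leave the nucleus, and when growth factors are withdrawn FOXO proteins return to the nucleus and activate genes that hold back the cell cycle, counter oxidative stress and restrain growth signalling. Fibroblasts deprived of serum enter a reversible quiescent state in which this programme is known to be active.

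The libraries came from NIH 3T3 cells, fibroblasts of mouse embryo origin that grow without limit, so that every group stems from 1 line. Cells received either a non-targeting control siRNA or an siRNA against Lap2, which is encoded by Tmpo and is present as a nucleoplasmic form and as forms anchored in the inner nuclear membrane. The Lap2 siRNA is a single duplex aimed at all of these isoforms, and no other siRNA against Lap2 was used in the libraries described here. With each siRNA, cells were kept in 0.3% FBS (serum-starved) or were stimulated after starvation with 15% FBS for 45 min, with 3 libraries for each of the 4 groups. The labels number the libraries 1 to 3 in each group but do not say whether they are separate cultures, so p-values measure the spread between these libraries, which may be technical.

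Total counts were 18026298 to 26265253 per library, and the group means of the 10 genes lay between 151 and 7081 normalized counts, with a coefficient of variation within groups of 1.34% to 22.5% (median 7.76%). Normalized counts are counts scaled with TMM to a common library size. Tmpo itself was at 38.4% of the control level in 0.3% FBS and at 22.3% in 15% FBS in Lap2-depleted cells. All 12 fibroblast markers examined had at least 564 normalized counts in every library, and no marker of epithelial, endothelial, leukocyte or skeletal muscle cells exceeded 51.8 in any library.

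Differences between groups were tested with edgeR's quasi-likelihood test, adjusted over the 18668 genes that passed the filter, and a gene is said to have risen or fallen where its adjusted p was under 0.05. The first question was how these genes respond to serum in control cells. All 10 genes fell after 45 min in 15% FBS. Of all genes tested, 13.9% fell and 15.6% rose in this comparison, and among the 10449 genes whose mean reached 100 normalized counts, a range that holds all 10, 19.8% fell and 25.1% rose. The median log2 fold change was -1.12 over the 10 genes and -0.01 over all genes tested. The balance between rising and falling genes depends on the scaling: in this comparison 2915 genes rose and 2597 fell with TMM, 2183 rose and 3878 fell with upper-quartile normalization, and 1632 rose and 5847 fell with scaling to total counts, while all 10 genes fell with each of these scalings and with DESeq2. Scaling to total counts shifted the median of all genes by -0.21 with control siRNA and by -0.23 with Lap2 siRNA for serum, and by 0.11 in 0.3% FBS and 0.09 in 15% FBS for Lap2 siRNA, so changes are given relative to the TMM scale. The second question was how Lap2 siRNA changes their levels in starved and in stimulated cells, and the third was whether the serum response itself differs between the siRNAs. The comparisons share libraries with one another, so they are not independent of each other.

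**Figure D1:**
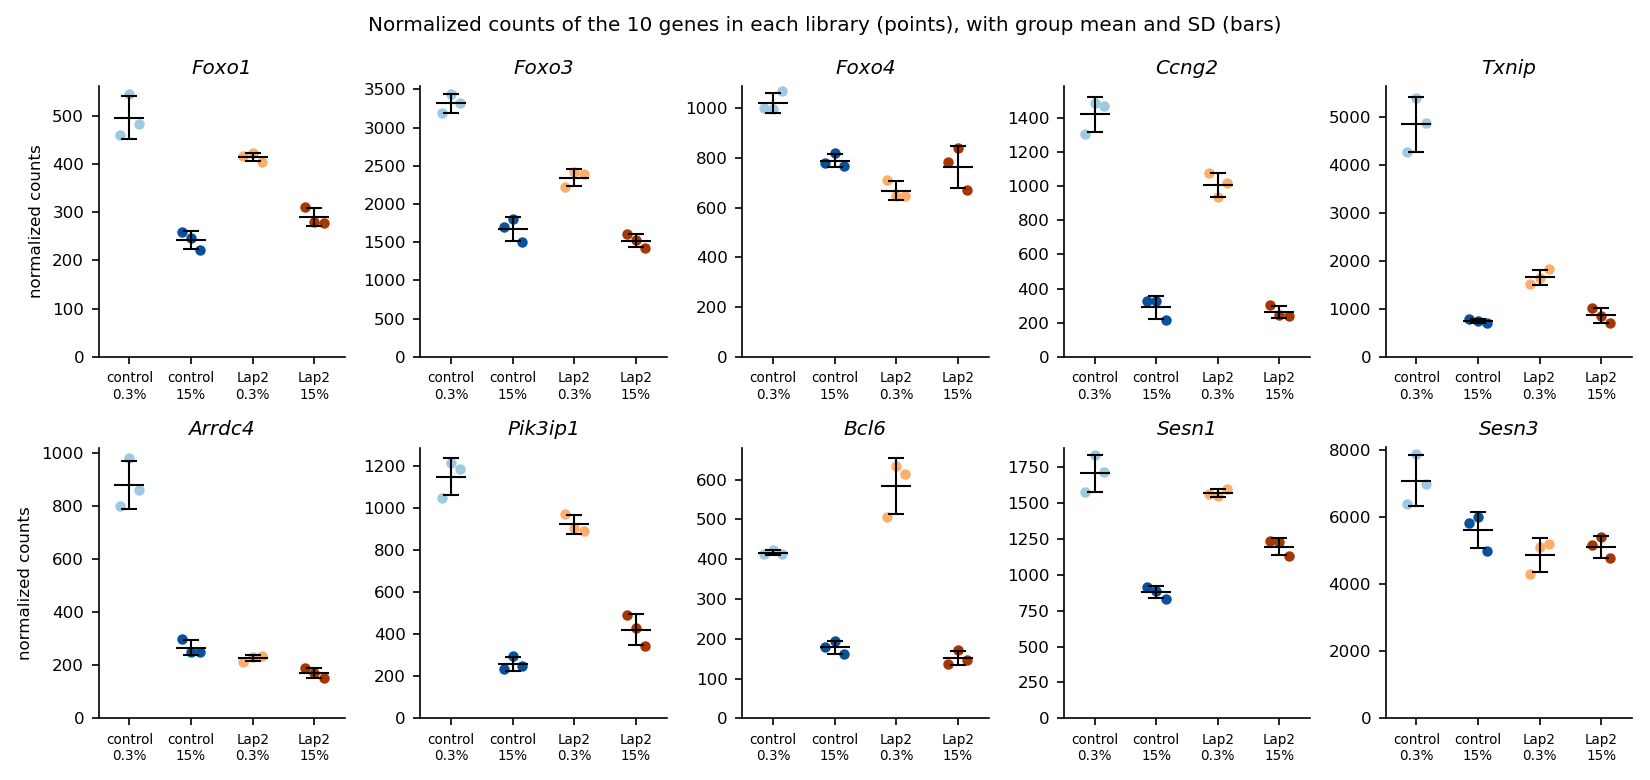
Normalized counts (vertical axes, each starting at 0) of the 10 genes in the 4 groups, named by siRNA and percent FBS, with 1 point per library and the group mean ± SD as bars (n = 3). The starved control libraries are the highest group for 9 genes, and for Bcl6 the starved Lap2-depleted libraries are the highest.

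Among the FOXO factors, Foxo1 (ENSMUSG00000044167) lies on chr3:52268336-52353221 of mm10, on the plus strand, and has the fewest reads per length of the 3. Its 3 libraries had 460.3, 546 and 483 normalized counts in starved control cells and 259, 246 and 222 after serum. In Lap2-depleted cells they had 417, 422 and 405 in 0.3% FBS and 312, 279.9 and 277 in 15% FBS. Every starved library was above every stimulated library with both siRNAs, and the starved Lap2-depleted libraries were all below the starved control libraries. Serum lowered Foxo1 by a log2 fold change of -1.03 (SE 0.10, adjusted p = 2.8e-10) in control cells and by -0.52 (SE 0.10, adjusted p = 9.1e-05) in Lap2-depleted cells. In 0.3% FBS, Lap2 siRNA lowered it by -0.26 (SE 0.10, adjusted p = 0.0297). This last call was lost when total counts were used for scaling (-0.15, adjusted p = 0.227) and when control library 2 (-0.16, adjusted p = 0.257), control library 3 (-0.27, adjusted p = 0.0596) or any of the Lap2 libraries (-0.23 to -0.26, adjusted p = 0.0546 to 0.0998) was left out. In 15% FBS the Lap2-depleted libraries were all above the control libraries, with a log2 difference of 0.25 (SE 0.10) that did not pass the test (adjusted p = 0.0840).

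Foxo3 (ENSMUSG00000048756, chr10:42181841-42276755, minus strand), the FOXO factor with the highest level per kb of exon in starved cells, had 3193, 3441 and 3322 normalized counts in starved control cells and 1704, 1809 and 1501 after serum. With Lap2 siRNA it had 2220, 2420 and 2398 in 0.3% FBS and 1603, 1526 and 1427 in 15% FBS. The 2 starved groups did not overlap, while the stimulated groups did. Serum reduced Foxo3 1.99-fold in control cells (log2 fold change -0.99, SE 0.07, adjusted p = 1.7e-13) and 1.55-fold in Lap2-depleted cells (-0.63, SE 0.07, adjusted p = 1.0e-08). Lap2 siRNA lowered it to 70.7% of the control level in 0.3% FBS (-0.50, SE 0.07, adjusted p = 4.2e-07), and in 15% FBS the difference was -0.14 (SE 0.07, adjusted p = 0.177).

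Foxo4 (ENSMUSG00000042903, chrX:101254528-101260873, plus strand) followed another course in the Lap2-depleted cells. It had 999, 995.5 and 1067 normalized counts in starved control cells and 779.9, 819 and 768 after serum. With Lap2 siRNA, the libraries had 712, 646 and 647 in 0.3% FBS and 784, 838 and 672 in 15% FBS. In control cells starved and stimulated libraries were apart, whereas in Lap2-depleted cells they overlapped, and all starved Lap2-depleted libraries were below every control library of either condition. Serum lowered Foxo4 by -0.37 (SE 0.08, adjusted p = 4.2e-04) in control cells. The log2 fold change in Lap2-depleted cells was 0.19 (SE 0.08, adjusted p = 0.0743), and without starved library 1 or stimulated library 3 it was 0.22 (adjusted p = 0.0361) or 0.27 (adjusted p = 0.0166). With scaling to total counts this value was -0.04, so that its sign depends on the scaling. Lap2 siRNA lowered Foxo4 by -0.61 (SE 0.08, adjusted p = 2.0e-07) in 0.3% FBS, the largest log2 fold change of the 3 FOXO factors there, and the difference in 15% FBS was -0.05 (SE 0.08, adjusted p = 0.766).

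Txnip and Arrdc4 encode α-arrestins. TXNIP binds thioredoxin and lowers glucose uptake by removing glucose transporters from the cell surface, and ARRDC4 is a paralogue that also lowers glucose uptake. Both genes are known targets of MondoA, a glucose-sensing factor that binds pairs of E-box-like sites, and Txnip is also a known FOXO target. Upstream sequences of the start site were read from RefSeq promoter windows (GRCm38.p6), which matched 9 of the 10 genes with 11 windows. The windows of Txnip (chr3:96557707-96557956, plus strand) and Arrdc4 (chr7:68749239-68749488, minus strand) are shown because these genes had the largest log2 fold changes of the 10 with Lap2 siRNA in 0.3% FBS. Each window is the 250 bases before the start site, 5′ to 3′. Capitals mark a FOXO word (TGTTTAC, here on the reverse strand as GTAAACA) and 2 E-box-like words (CACGNG) that are 5 bases apart in Txnip, and an E-box (CACGTG) in Arrdc4.
Txnip: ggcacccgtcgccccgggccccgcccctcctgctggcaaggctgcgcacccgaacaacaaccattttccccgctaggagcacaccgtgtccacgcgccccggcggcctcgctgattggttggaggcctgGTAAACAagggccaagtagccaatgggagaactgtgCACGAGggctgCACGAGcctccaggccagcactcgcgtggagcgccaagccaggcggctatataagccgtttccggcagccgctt
Arrdc4: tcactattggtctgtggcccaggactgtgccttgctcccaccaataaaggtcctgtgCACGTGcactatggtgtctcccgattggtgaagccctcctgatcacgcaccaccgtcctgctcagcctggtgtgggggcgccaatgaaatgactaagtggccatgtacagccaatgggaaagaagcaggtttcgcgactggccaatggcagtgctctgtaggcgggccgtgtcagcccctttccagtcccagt
On either strand, the FOXO word was in 3.17% of the 32851 RefSeq windows of this length and, among the windows of the 10 genes, in that of Txnip, 121 to 115 bases before the start. The E-box was in 6.02% of all windows, and here in those of Arrdc4, 193 to 188 bases before the start, and Bcl6, 60 to 55 bases before 1 of its 2 starts. The pair of CACGNG words with a spacer of 5 bases was in 0.0457% of all windows (15 windows), Txnip being the single one among these genes, and this pair was searched for after the Txnip sequence had been seen. CCAAT, the word bound by NF-Y, was in 33.8% of all windows and occurred 6 times in the Arrdc4 window, 4 times in that of Sesn3, 3 times in that of Foxo1 and 2 times in that of Txnip. The exact word TATAAA, in 12.4% of all windows, was in no window of these genes. Variants of it, such as the TATATAA in the Txnip window, were not searched for. A word match is a description of the sequence and no evidence of binding.

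**Figure D2:**
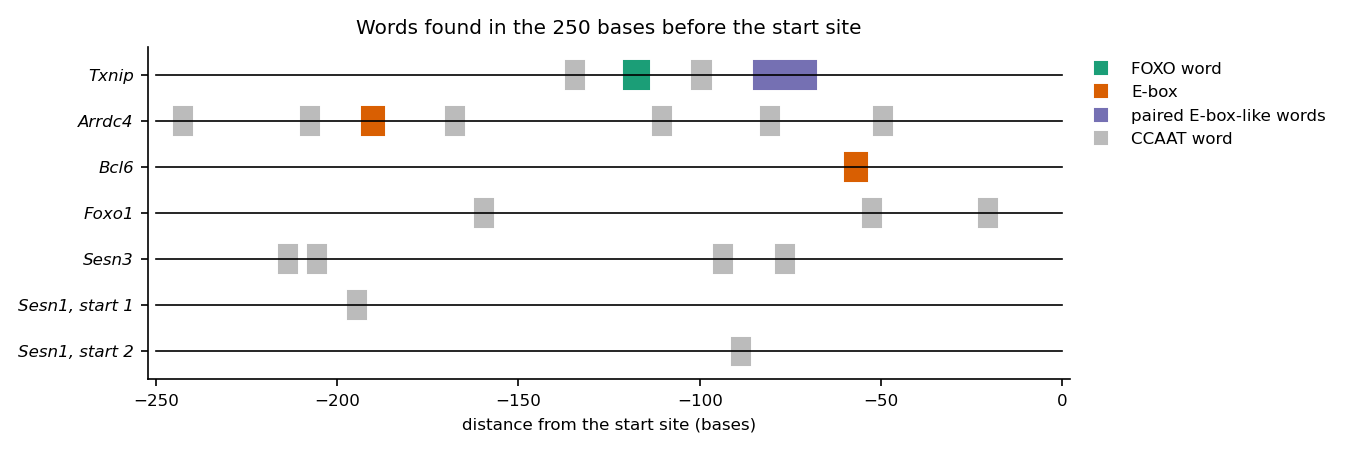
Positions of the words in the 250 bases before the start site (horizontal axis, distance from the start in bases) for the 6 genes with a match, with 2 starts of Sesn1 on lines of their own. The FOXO word and the paired E-box-like words lie within 121 bases of the Txnip start, and the Arrdc4 window holds 6 CCAAT words and 1 E-box.

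Txnip (ENSMUSG00000038393, chr3:96557957-96561883, plus strand) showed the largest serum response of the 10 genes in control cells. Its libraries had 4277, 5408 and 4878 normalized counts in starved control cells and 791, 752 and 705 after serum. With Lap2 siRNA they had 1521, 1645 and 1832 in 0.3% FBS and 1027, 862 and 701 in 15% FBS. Even the highest starved Lap2-depleted library was below the lowest starved control library, and the stimulated groups overlapped. Serum reduced Txnip 6.47-fold in control cells (log2 fold change -2.69, SE 0.10, adjusted p = 2.4e-21), which ranked it at 229 of 18668 genes counted from the strongest decrease, and 1.93-fold in Lap2-depleted cells (-0.95, SE 0.10, adjusted p = 1.3e-09). Lap2 siRNA lowered Txnip to 34.3% of the control level in 0.3% FBS (-1.54, SE 0.09, adjusted p = 5.9e-15). In 15% FBS the difference was 0.20 (SE 0.10, adjusted p = 0.172). It passed the test with scaling to total counts (0.28, adjusted p = 0.0316) and without Lap2 library 3 (0.32, adjusted p = 0.0204). An antisense gene, Gm15441, overlaps Txnip exons and had group means of at most 28.1 normalized counts, and the setting for strand in the counting was not given in the sources used here. Exons of Foxo1, Pik3ip1 and Bcl6 are likewise overlapped by a gene on the opposite strand (Gm20402, Gm12592 and Gm37419). These had group means of at most 1.38, 11.25 and 3.33 normalized counts.

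Arrdc4 (ENSMUSG00000042659, chr7:68736995-68749241, minus strand) had 799.8, 979.9 and 861 normalized counts in starved control cells and 298, 251 and 249 after serum. In Lap2-depleted cells it had 213, 232 and 237 in 0.3% FBS and 191, 169.7 and 152 in 15% FBS. The starved Lap2-depleted libraries were thus below even the stimulated control libraries, and none of the 4 groups overlapped with another. Serum reduced Arrdc4 3.30-fold in control cells (-1.72, SE 0.10, adjusted p = 1.7e-15) and 1.33-fold in Lap2-depleted cells (-0.42, SE 0.12, adjusted p = 0.0064). Lap2 siRNA lowered it to 25.8% of the control level in 0.3% FBS (-1.96, SE 0.10, adjusted p = 3.2e-16), the largest log2 fold change of the 10 genes in that comparison, and to 64.2% in 15% FBS (-0.65, SE 0.12, adjusted p = 7.0e-05). Arrdc4 was the only one of the 10 that fell with Lap2 siRNA in both serum conditions, except that without stimulated control library 3 Foxo3 (-0.21, adjusted p = 0.0485) and Ccng2 (-0.32, adjusted p = 0.0432) also fell in 15% FBS.

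Pik3ip1 (ENSMUSG00000034614, chr11:3330401-3342971, plus strand) encodes a membrane protein that inhibits PI3K, the kinase upstream of AKT. It had 1047, 1214 and 1183 normalized counts in starved control cells and 233, 298 and 247 after serum. In Lap2-depleted cells it had 973, 903 and 889 in 0.3% FBS and 493, 428 and 344 in 15% FBS. The stimulated Lap2-depleted libraries were all above the stimulated control libraries, while the starved ones were all below the starved control libraries. Serum reduced Pik3ip1 4.43-fold in control cells (-2.15, SE 0.11, adjusted p = 9.7e-18) and 2.19-fold in Lap2-depleted cells (-1.13, SE 0.10, adjusted p = 6.0e-11). Lap2 siRNA raised it 1.62-fold in 15% FBS (0.70, SE 0.11, adjusted p = 1.2e-05). In 0.3% FBS it fell by 0.32 on the log2 scale (SE 0.09, adjusted p = 0.0078), a call lost with scaling to total counts (-0.21, adjusted p = 0.0810), without control library 2 (-0.25, adjusted p = 0.0767) and without control library 3 (-0.28, adjusted p = 0.0521).

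Ccng2 and Bcl6 act on the cell cycle. Ccng2 (ENSMUSG00000029385, chr5:93267257-93276231, plus strand) encodes cyclin G2, an unconventional cyclin that is abundant in quiescent cells and slows cell cycle entry. It had 1304, 1487 and 1470 normalized counts in starved control cells and 326, 327 and 214 after serum. With Lap2 siRNA it had 1074, 934 and 1019 in 0.3% FBS and 303, 246 and 238 in 15% FBS. The starved groups were apart and the stimulated groups overlapped. Serum reduced Ccng2 4.88-fold in control cells (-2.29, SE 0.11, adjusted p = 4.4e-18) and 3.86-fold in Lap2-depleted cells (-1.95, SE 0.11, adjusted p = 9.2e-16). In 0.3% FBS, Lap2 siRNA lowered it to 71.0% of the control level (-0.49, SE 0.10, adjusted p = 1.2e-04), and in 15% FBS the difference was -0.16 (SE 0.12, adjusted p = 0.424).

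Bcl6 (ENSMUSG00000022508, chr16:23965052-23988852, minus strand) encodes a zinc finger repressor of transcription. It was the only one of the 10 genes that rose with Lap2 siRNA in 0.3% FBS. It had 413.2, 423 and 413.1 normalized counts in starved control cells and 180.1, 195 and 162 after serum. In Lap2-depleted cells it had 505, 636 and 614 in 0.3% FBS and 136, 171 and 146 in 15% FBS, so that all starved Lap2-depleted libraries were above all other libraries and the stimulated groups overlapped. Lap2 siRNA raised Bcl6 1.40-fold in 0.3% FBS (0.49, SE 0.10, adjusted p = 2.0e-04), and the difference in 15% FBS was -0.25 (SE 0.13, adjusted p = 0.172). Serum reduced it 2.32-fold in control cells (-1.22, SE 0.11, adjusted p = 9.3e-11) and 3.86-fold in Lap2-depleted cells (-1.95, SE 0.11, adjusted p = 1.2e-15).

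The sestrins are stress-responsive proteins that restrain mTORC1 through the GATOR complexes, and Sesn1 and Sesn3 are known FOXO targets. Sesn1 (ENSMUSG00000038332, chr10:41809935-41908424, plus strand) had 1576, 1834 and 1717 normalized counts in starved control cells and 917, 888 and 835 after serum. With Lap2 siRNA it had 1567, 1547 and 1602 in 0.3% FBS and 1234, 1228 and 1133 in 15% FBS. The starved groups overlapped, and every stimulated Lap2-depleted library was above every stimulated control library. Serum reduced Sesn1 1.94-fold in control cells (-0.96, SE 0.07, adjusted p = 6.0e-13) and 1.31-fold in Lap2-depleted cells (-0.39, SE 0.07, adjusted p = 3.6e-05). With Lap2 siRNA it was 1.36-fold higher in 15% FBS (0.44, SE 0.07, adjusted p = 1.6e-05), and in 0.3% FBS the difference was -0.12 (SE 0.07, adjusted p = 0.185).

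Sesn3 (ENSMUSG00000032009, chr9:14275067-14333101, plus strand) had the most reads of the 10 genes. It had 6383, 7885 and 6973 normalized counts in starved control cells and 5823, 5996 and 4992 after serum. In Lap2-depleted cells it had 4294, 5109 and 5195 in 0.3% FBS and 5155, 5411 and 4767 in 15% FBS. The control groups did not overlap, the Lap2-depleted groups did, and all starved Lap2-depleted libraries were below the starved control libraries. Serum lowered Sesn3 by -0.34 (SE 0.08, adjusted p = 0.0010) in control cells, and the log2 fold change in Lap2-depleted cells was 0.07 (SE 0.08, adjusted p = 0.555), a value whose sign turned with scaling to total counts (-0.16) and with upper-quartile normalization (-0.04). In 0.3% FBS, Lap2 siRNA lowered Sesn3 to 68.7% of the control level (-0.54, SE 0.08, adjusted p = 1.2e-06), and in 15% FBS the difference was -0.13 (SE 0.08, adjusted p = 0.262).

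**Figure D3:**
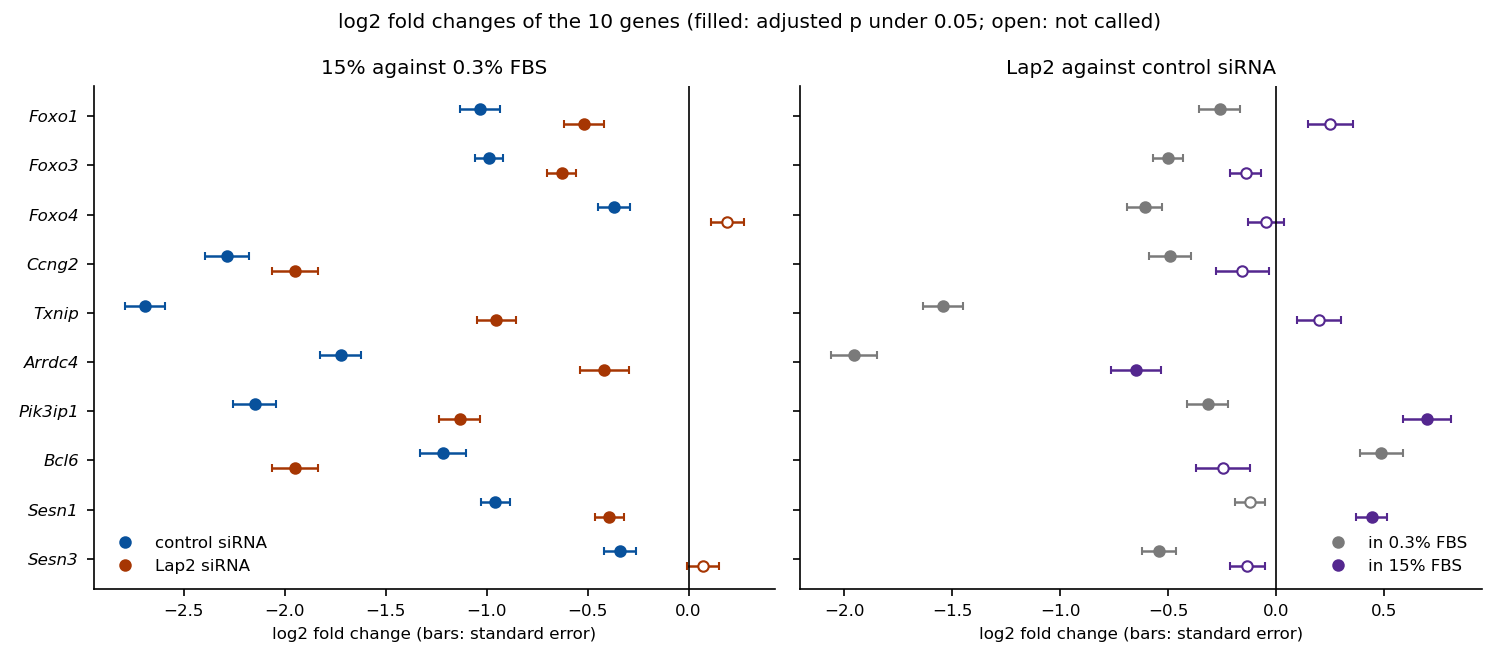
log2 fold changes (horizontal axes) with standard errors of the 10 genes for serum stimulation with each siRNA (left) and for Lap2 siRNA in each serum condition (right), with filled points for an adjusted p under 0.05. With control siRNA all 10 points are filled and lie between -2.69 and -0.34, and in 15% FBS the 3 filled points are Arrdc4, Pik3ip1 and Sesn1.

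Seen over the 10 genes, serum lowered 8 in Lap2-depleted cells, and Foxo4 and Sesn3 were the 2 without a call. Of all genes tested, 14.9% fell and 18.3% rose in that comparison (21.1% and 29.4% of the 10449 genes whose mean reached 100), and the median log2 fold change was -0.57 over the 10 genes and 0.00 over all genes tested. When total counts were used, 8 of the 10 fell, and 1658 of all genes rose and 5951 fell (with TMM 3420 and 2777, with upper-quartile normalization 2383 and 3942). With Lap2 siRNA in 0.3% FBS, 8 of the 10 fell, Bcl6 rose and Sesn1 was not called, beside 18.6% of all genes that fell and 17.8% that rose (27.4% and 26.8% of the more abundant genes). The median there was -0.50 over the 10 genes and 0.01 over all genes tested. Scaled to total counts, 6 of the 10 fell, without Foxo1 and Pik3ip1, and 4692 of all genes rose and 2638 fell, against 3330 and 3480 with TMM. With Lap2 siRNA in 15% FBS, Pik3ip1 and Sesn1 rose, Arrdc4 fell and the other 7 were not called, beside 11.4% of all genes that rose and 12.1% that fell (18.5% and 19.1% of the more abundant genes), and the medians were -0.09 and 0.02. Foxo1 and Txnip were called higher too with scaling to total counts, which gave 4 higher and 1 lower, beside 3471 of all genes higher and 1678 lower (2125 and 2250 with TMM). The total level of the fibroblast markers also moved with the siRNA: their sum was 901000 to 932100 normalized counts in starved control libraries and 548400 to 661000 in starved Lap2-depleted libraries, with 9 of 12 lower and 2 higher, and 937500 to 1029000 against 661900 to 739600 in 15% FBS, with 10 of 12 lower. Their part in the values of the 10 genes was not tested. In these bulk libraries, fewer cells expressing a gene and less RNA per cell cannot be told apart.

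The difference between the serum responses was then tested as an interaction, which is the log2 fold change of serum in Lap2-depleted cells minus that in control cells. It was positive and called for 8 of the 10 genes and negative and called for Bcl6, beside 7.09% of all genes with a positive and 6.51% with a negative call (11.4% and 10.7% of the 10449 more abundant genes), and the median was 0.54 over the 10 genes and 0.02 over all genes tested. For the 8 genes, serum thus had a smaller lowering effect with Lap2 siRNA than with control siRNA, or none that passed the test. The difference was 1.74 (SE 0.14, adjusted p = 4.2e-11) for Txnip, 1.31 (SE 0.16, adjusted p = 2.9e-07) for Arrdc4 and 1.01 (SE 0.15, adjusted p = 5.7e-06) for Pik3ip1. Txnip and Arrdc4 are the α-arrestin genes of the 10, and Pik3ip1 the inhibitor of PI3K. It was 0.56 for both Sesn1 (SE 0.10, adjusted p = 1.2e-04) and Foxo4 (SE 0.12, adjusted p = 6.8e-04). Smaller values were found for Foxo1 (0.51, SE 0.14, adjusted p = 0.0120), Sesn3 (0.41, SE 0.11, adjusted p = 0.0116) and Foxo3 (0.36, SE 0.10, adjusted p = 0.0120). These 3 calls rest on single libraries. Without starved control library 2 the values were 0.40 (adjusted p = 0.0765) for Foxo1, 0.29 (adjusted p = 0.106) for Sesn3 and 0.30 (adjusted p = 0.0696) for Foxo3, which left 5 of the 8 positive calls. Without stimulated control library 3 that of Sesn3 was 0.34 (adjusted p = 0.0515), and without stimulated Lap2 library 1 that of Foxo3 was 0.32 (adjusted p = 0.0540). For Bcl6 the difference was -0.73 (SE 0.16, adjusted p = 0.0015), a larger decrease with Lap2 siRNA. For Ccng2 it was 0.34 (SE 0.16, adjusted p = 0.175) with an unadjusted 95% interval of 0.03 to 0.65, so that a difference in its serum response was not called.

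The order of the genes by level was compared as normalized counts per kb of exon. In starved control cells Txnip was the highest at 1554 per kb and was apart from all others. Sesn3 (464), Foxo3 (438) and Sesn1 (429) followed with overlapping libraries, then Foxo4 (293), then Pik3ip1 (269), Ccng2 (260.2) and Arrdc4 (218), neighbours that overlapped, and Bcl6 (62.1) and Foxo1 (57.3), which overlapped at the lowest level. After serum in control cells Sesn3 was the highest at 367 per kb, and Txnip (239.8), Foxo4 (226), Sesn1 (221) and Foxo3 (220.7) overlapped in sequence below it. In starved Lap2-depleted cells Txnip was still the highest at 534 per kb, followed by Sesn1 (395), and Arrdc4 was the second lowest at 56.3, below Bcl6 at 87.3. In stimulated Lap2-depleted cells Sesn3 (335), Sesn1 (301) and Txnip (277) were the highest and Bcl6 (22.5) the lowest.

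The genes whose profiles were most like those of the 10 were sought by Pearson's r of log2 CPM over the 12 libraries, which share their groups and depth, so that r is a description and mostly reflects the differences between groups. Among 10448 genes, Zfp703 (0.990), Dedd2 (0.987) and Bmf (0.986) were most like Foxo1, and Zfp354c (0.992), Sox4 (0.992) and Efna4 (0.991) most like Foxo3. For Foxo4 the highest values were lower, with Lhx8 (0.961), Pik3r2 (0.961) and Calml4 (0.960). Txnip was most like Apbb1 (0.994), Osr1 (0.992) and Sall2 (0.991), and Arrdc4 most like Fzd2 (0.989), Ppp1r9b (0.988) and Tef (0.988). Ccng2 was most like Narf (0.997), Zfp799 (0.995) and Zfp846 (0.990), and Bcl6 most like Zc3h4 (0.993), Etaa1 (0.990) and Rtl1 (0.985). Tmem86a was among the 3 genes most like Pik3ip1 (0.988, after Zfp606 with 0.994 and before Pithd1 with 0.986) and the gene most like Sesn1 (0.993, followed by Zfp553 with 0.984 and Zfp40 with 0.981). Sesn3 was most like Lrp6 (0.957), Runx1t1 (0.955) and Arhgap20 (0.955). Among the 10 genes themselves r was highest between Pik3ip1 and Sesn1 (0.978) and between Foxo1 and Pik3ip1 (0.977), was 0.834 between Foxo4 and Sesn3 and 0.869 between Arrdc4 and Sesn3, and was lowest between Foxo4 and Bcl6 (0.006).

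Genes that act around these 10 were taken from lists by role, with counts to be read beside the shares of all genes tested. With serum 15.6% rose and 13.9% fell in control cells, and 18.3% and 14.9% in Lap2-depleted cells. With Lap2 siRNA 17.8% rose and 18.6% fell in 0.3% FBS, and 11.4% and 12.1% in 15% FBS. Among the 10449 genes whose mean reached 100, these shares were 25.1% and 19.8%, 29.4% and 21.1%, 26.8% and 27.4%, and 18.5% and 19.1%. Upstream, 25 genes of the route from the insulin and IGF1 receptors to AKT and SGK were tested. With serum in control cells 7 rose and 4 fell, and in Lap2-depleted cells 11 rose and 4 fell. With Lap2 siRNA 5 rose and 9 fell in 0.3% FBS, and 4 rose and 7 fell in 15% FBS. Scaled to total counts, these counts were 5 and 8, 2 and 6, 7 and 7, and 6 and 6, and with upper-quartile normalization the serum counts were 6 and 6 in control and 5 and 4 in Lap2-depleted cells. The list median was 0.08 and 0.23 for serum in control and Lap2-depleted cells, and -0.05 and -0.08 for Lap2 siRNA in 0.3% and 15% FBS. Sgk1, a serum-induced kinase that phosphorylates FOXO proteins as AKT does, rose with serum from a mean of 3162 to 18490 normalized counts in control cells (log2 fold change 2.55, SE 0.07, adjusted p = 1.0e-25) and from 5443 to 13120 in Lap2-depleted cells (1.27, SE 0.06, adjusted p = 1.5e-17), with an interaction of -1.28 (SE 0.09, adjusted p = 3.0e-12). With Lap2 siRNA it was higher in 0.3% FBS (0.78, SE 0.06, adjusted p = 5.8e-12) and lower in 15% FBS (-0.50, adjusted p = 1.6e-07). Irs1, an adaptor of the insulin receptor, fell with serum with both siRNAs (-1.27 and -1.23) and fell with Lap2 siRNA in 0.3% FBS (-0.56) and in 15% FBS (-0.52). Irs2, the related adaptor, rose by 1.00 with serum in control cells and by 0.30 in Lap2-depleted cells, and was lower with Lap2 siRNA in 15% FBS (-0.64). Pik3cd, a catalytic subunit of PI3K, fell with Lap2 siRNA by 1.06 on the log2 scale in 0.3% FBS and by 0.89 in 15% FBS.

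Of 13 genes for proteins that bind or modify FOXO factors, 9 rose and 2 fell with serum in control cells, and 6 rose and 4 fell in Lap2-depleted cells. With Lap2 siRNA, 4 rose and 2 fell in 0.3% FBS, and 1 rose and 1 fell in 15% FBS. These counts were 4 and 4, 4 and 5, 7 and 1, and 3 and 0 when scaled to total counts. Upper-quartile normalization gave 6 and 3 for serum in control cells, and DESeq2 gave 0 and 1 for Lap2 siRNA in 15% FBS. Medians of this list, in the same order, were 0.19, 0.23, 0.07 and 0.03. Foxo6, the remaining FOXO gene, at a low level here, fell from a mean of 200.4 to 99.7 normalized counts with serum in control cells (SE of the log2 fold change 0.16, adjusted p = 5.2e-06) and was lower with Lap2 siRNA in 0.3% FBS (-0.99, SE 0.16, adjusted p = 5.4e-06), with an interaction of 1.23 (SE 0.23, adjusted p = 2.6e-04). Skp2, part of a ubiquitin ligase that acts on FOXO1 and on p27, rose by 1.01 (SE 0.08, adjusted p = 4.8e-12) with Lap2 siRNA in 0.3% FBS. Ywhag, which encodes a 14-3-3 protein, rose with serum with control siRNA (0.93) and with Lap2 siRNA (0.76).

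Of 30 other known FOXO target genes, 25 passed the filter on low counts. With serum, 7 rose and 10 fell in control cells, and 6 rose and 7 fell in Lap2-depleted cells. With Lap2 siRNA, 8 rose and 7 fell in 0.3% FBS, and 7 rose and 5 fell in 15% FBS, so that the calls in this list went both ways in each comparison. Scaling to total counts gave serum counts of 6 and 14 in control cells and 3 and 12 in Lap2-depleted cells, and upper-quartile normalization gave 3 and 8 in the latter. In the same order the medians were -0.07, -0.04, 0.07 and -0.07. Fbxo32, a ubiquitin ligase gene of muscle wasting, fell from a mean of 447 to 151 with serum in control cells (-1.57) and from 391 to 128 in Lap2-depleted cells (-1.61). Atg14, an autophagy gene, fell likewise in both (-1.56 and -1.40). Pdk4, which encodes a kinase that inhibits pyruvate dehydrogenase, had means of 3543 in starved and 1729 in stimulated control cells and of 1694 and 1650 in the Lap2-depleted cells, with an interaction of 1.00 (SE 0.10, adjusted p = 7.0e-09). Bcl2l11, the gene of the pro-apoptotic protein BIM, fell by 1.15 on the log2 scale (SE 0.09, adjusted p = 9.6e-13) with Lap2 siRNA in 0.3% FBS. Klf6, a zinc finger factor, rose with serum by 2.46 in control and 2.07 in Lap2-depleted cells. In the interaction, 4 of the 25 were positive and 6 negative, or 2 and 6 with scaling to total counts and with upper-quartile normalization. Of all genes tested, 7.09% had a positive and 6.51% a negative call there (11.4% and 10.7% of the more abundant genes).

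Of 13 genes for other α-arrestins, MondoA and its partners, thioredoxins and glucose transporters, 11 were tested. With serum 5 rose and 2 fell with each siRNA, and with Lap2 siRNA 6 rose and 2 fell in 0.3% FBS and 5 rose and 2 fell in 15% FBS. With scaling to total counts 3 rose and 5 fell with serum in Lap2-depleted cells, and 5 rose and 1 fell with Lap2 siRNA in 15% FBS. Here the medians were 0.16, -0.01, 0.32 and 0.08. Slc2a1, the glucose transporter gene whose product TXNIP removes from the membrane, rose with serum from a mean of 2296 to 13130 normalized counts in control cells (2.52, SE 0.07, adjusted p = 2.0e-24) and from 3069 to 13150 in Lap2-depleted cells (2.10, SE 0.07, adjusted p = 3.0e-22). Arrdc2 fell with serum in control (-1.70) and Lap2-depleted cells (-1.47), whereas Arrdc3 rose with serum in control (0.50) and Lap2-depleted cells (1.06) and with Lap2 siRNA in 0.3% FBS (0.38) and in 15% FBS (0.95). Of the other α-arrestins, Arrdc1 fell with Lap2 siRNA in 0.3% FBS (-0.89) and in 15% FBS (-0.57). Txnrd1, thioredoxin reductase, rose by 0.87 with serum in control cells and by 0.87 with Lap2 siRNA in 0.3% FBS.

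Of 13 genes for the remaining sestrin, AMPK, CASTOR and GATOR proteins, 4 rose and 3 fell with serum in control cells and 3 rose and 5 fell in Lap2-depleted cells. With Lap2 siRNA, 2 rose and 5 fell in 0.3% FBS and 2 rose and 3 fell in 15% FBS. Scaled to total counts, 3 rose and 8 fell with serum in control cells, 1 rose and 6 fell in Lap2-depleted cells, and 4 rose and 1 fell with Lap2 siRNA in 0.3% FBS, where DESeq2 gave 2 and 3. For this list the medians were -0.09, 0.02, -0.105 and -0.11. Sesn2, in contrast to its paralogues Sesn1 and Sesn3, rose with serum in control (0.50, SE 0.08, adjusted p = 5.1e-06) and in Lap2-depleted cells (0.57, SE 0.08, adjusted p = 8.4e-07). Castor2, an arginine sensor relative, fell with Lap2 siRNA in 0.3% FBS (-0.82) and in 15% FBS (-0.37).

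**Figure D4:**
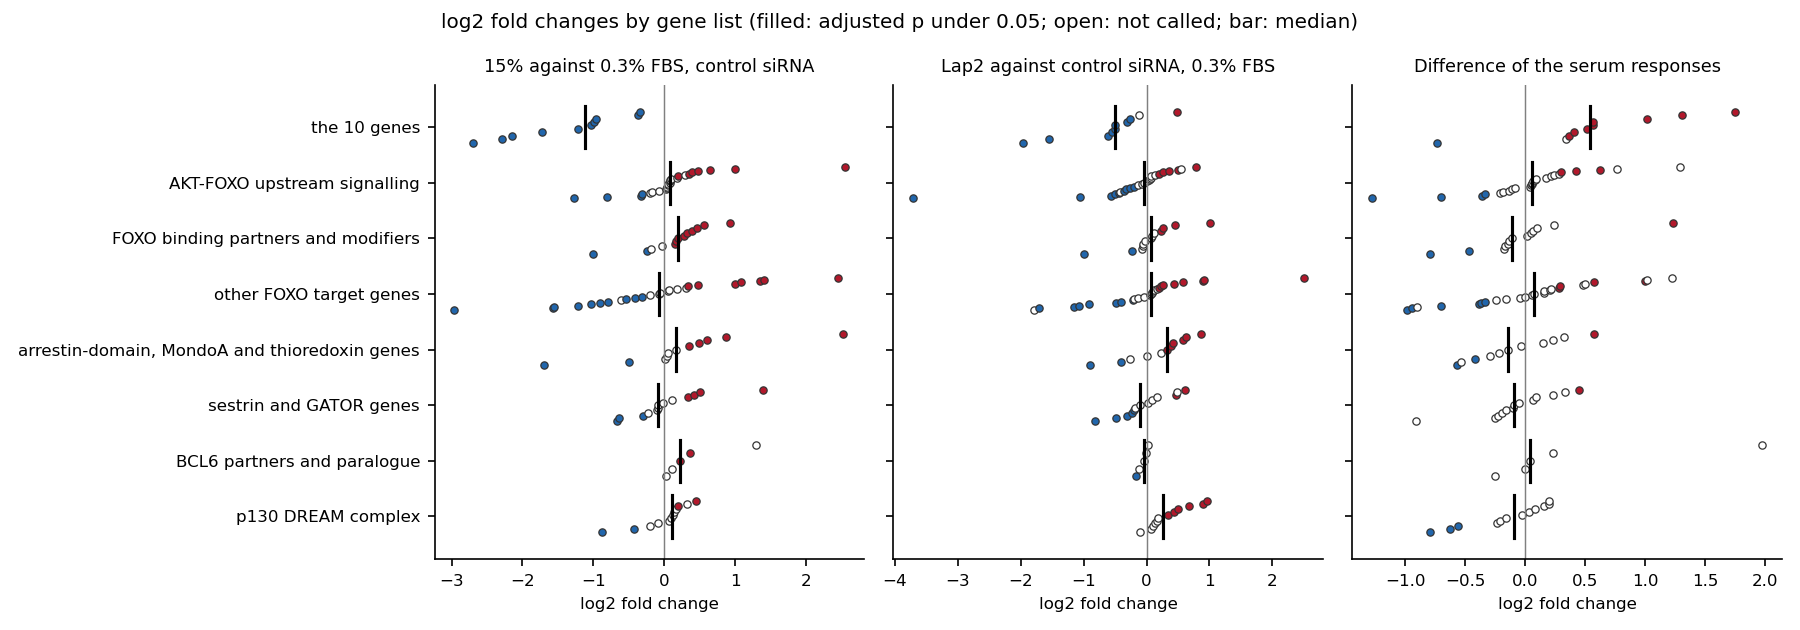
log2 fold changes (horizontal axes) of the 10 genes and of the tested members of 7 gene lists for serum with control siRNA, Lap2 siRNA in 0.3% FBS and the difference between the serum responses, with 1 point per gene, filled where the adjusted p was under 0.05, and a bar at the list median. The medians of the 10 genes are -1.12, -0.50 and 0.54, while points of the other lists with more than 5 genes lie on both sides of 0.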

How the data were processed

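RNA-seq was carried out on total RNA depleted of ribosomal RNA from NIH 3T3 cells, made into directional libraries. Alignment to mm10 with TopHat2 and counting per gene with HTSeq were done by the authors. The deposited values are these raw counts, which were not normalized. The labels also name DESeq2. Tool versions, annotation and the setting for strand are not given in the sources used here.

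From the deposited counts, edgeR 4.0.16 in R 4.3.3 was run with TMM normalization, glmQLFit and glmQLFTest on all 12 libraries, with 4 group means in the model, and 18668 genes were kept, those counted more than 1 time in 3 or more libraries (the threshold of 1 follows the study). P-values were adjusted by the Benjamini-Hochberg method over all these genes, with a threshold of 0.05, and standard errors are the log2 fold change divided by the root of the F statistic. The edgeR step was tested on simulated data. Positions and exon lengths were taken from GENCODE M21, and 99.3% of identifiers had a symbol. Per-kb levels are normalized counts divided by the length of the merged exons.

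The 10 genes and the 7 pathway lists were chosen with earlier results of these data known. Some genes of these lists are not reported here. Named in the text are the 10 genes, Tmpo, up to 4 called genes with the largest absolute log2 fold change per list and comparison (mean of at least 50 normalized counts), and for each of the 10 the 3 genes with the highest r (mean of at least 100). The lists cover AKT-FOXO upstream signalling, FOXO partners and modifiers, other FOXO target genes, α-arrestin, MondoA and thioredoxin genes, sestrin and GATOR genes, BCL6 partners, and the p130 DREAM complex. Words in promoter windows were searched on both strands, overlaps included.

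Alternatives to this fit were upper-quartile and total-count scaling, DESeq2 1.42.0, 3 other count filters, a block for the replicate number, fits restricted to the pair of groups in a comparison, and the removal of each library in turn. Figures and tables were made with Python 3.11.15, pandas 2.3.3, numpy 2.4.6 and matplotlib 3.10.9. Libraries held 18026298 to 26265253 counts, and the lowest group mean of the 10 genes was 151 normalized counts, so that 3 libraries in each group and, for the less abundant genes, counting error limit the precision.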

Additional observations from a re-analysis of the deposited data

Results flagged for a closer look

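For 9 of the 10 genes, the serum response with Lap2 siRNA differed from that with control siRNA in the interaction test of edgeR's quasi-likelihood fit, with an adjusted p under 0.05. Of all genes tested, 7.09% had a positive and 6.51% a negative call there (11.4% and 10.7% of the 10449 genes whose mean reached 100). Without starved control library 2, the calls of Foxo1, Foxo3 and Sesn3 were lost. The differences on the log2 scale, with Lap2 siRNA minus control siRNA, were 1.74 for Txnip, 1.31 for Arrdc4, 1.01 for Pik3ip1, 0.56 for Sesn1, 0.56 for Foxo4, 0.51 for Foxo1, 0.41 for Sesn3, 0.36 for Foxo3 and -0.73 for Bcl6. The same libraries also give the effect of Lap2 siRNA in each serum condition, so these values are no separate evidence. No group had the 4 or more libraries needed to look for single libraries far from the rest of their group.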

How the results depend on the processing

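With serum and control siRNA 10 genes, and with serum and Lap2 siRNA 8 genes, were called lower in every alternative. Of 990 alternative values for single genes and comparisons, 963 kept their direction and their side of the threshold, 14 lost and 7 gained a call, and 6 turned their sign, none of them a called value. Scaling to total counts gave 4 genes higher with Lap2 siRNA in 15% FBS, log2 fold changes of -0.0379 and 0.0394 for Foxo4 (serum with Lap2 siRNA, and Lap2 siRNA in 15% FBS), and -0.16 for Sesn3 (serum with Lap2 siRNA), which was -0.038 with upper-quartile normalization. Over the fits that left out 1 library each, the number of genes called higher was 0 to 1 for serum with Lap2 siRNA, 2 to 3 for Lap2 siRNA in 15% FBS and 5 to 8 for the interaction, and the number called lower was 6 to 8 for Lap2 siRNA in 0.3% FBS and 1 to 3 in 15% FBS. Foxo4 ranged from -0.12 to 0.0275 for Lap2 siRNA in 15% FBS, and Sesn3 from -0.0272 to 0.11 for serum with Lap2 siRNA. For the pathway lists 441 of 490 alternative counts stayed within 1.5 times the main count. With the replicate block the counts of the 10 genes were 10 and 8 lower for serum, 8 lower and 1 higher for Lap2 siRNA in 0.3% FBS, 1 lower and 2 higher in 15% FBS, and 8 higher and 1 lower for the interaction, as without it. Deviations from the group means correlated at -0.03 to 0.04 between same-numbered libraries (18 pairs) and at -0.04 to 0.04 between others (36 pairs). These values cover all tested genes, including genes with few counts. They therefore cannot tell whether same-numbered libraries shared a culture or day. The number of libraries limits small differences such as that of Foxo1 in 15% FBS.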

Other observations

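The 12 tested genes listed for the p130 DREAM complex, which represses cell cycle genes in quiescence, were at normalized counts of 131 to 8752 in group means. Not all of them encode subunits of that complex, as the list also holds the kinase gene Dyrk1a. Dyrk1a rose with Lap2 siRNA by 0.44 on the log2 scale in 0.3% FBS and by 0.27 in 15% FBS. With Lap2 siRNA 6 rose and 0 fell in 0.3% FBS, and 5 rose and 0 fell in 15% FBS, and the list median was 0.27 and 0.20. Of all genes tested, 17.8% rose in 0.3% FBS and 11.4% in 15% FBS (26.8% and 18.5% of the 10449 genes whose mean reached 100), and scaling to total counts gave 9 and 8 of the 12 higher and 0 lower. Rbl1, the gene of the p130 relative p107, had means of 395.5 in starved and 434 in stimulated control cells and of 772 and 486 in Lap2-depleted cells, with a log2 fold change of 0.96 (SE 0.09, adjusted p = 2.8e-10 by edgeR) for Lap2 siRNA in 0.3% FBS and an interaction of -0.80 (SE 0.13, adjusted p = 4.6e-05). Lin54 (0.90) and Lin9 (0.68), subunits of the MuvB core, also rose with Lap2 siRNA in 0.3% FBS. With serum 2 rose and 2 fell in control cells and 1 rose and 3 fell in Lap2-depleted cells, whereas scaling to total counts gave 0 and 3, and 0 and 9, and upper-quartile normalization 1 and 3, and 0 and 6. Lin37, another MuvB subunit, fell by 0.88 with control siRNA and by 0.80 with Lap2 siRNA on the log2 scale.

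Of the 5 genes for BCL6 corepressors and its paralogue, Bcor (0.37 and 0.60) and Ncor1 (0.23 and 0.22) rose with serum in control and Lap2-depleted cells. With Lap2 siRNA in 0.3% FBS, Hdac3 fell by 0.17 on the log2 scale (adjusted p = 0.0484 by edgeR). This call was lost with DESeq2, with scaling to total counts and with upper-quartile normalization, which gave 0 higher and 0 lower in this list. With scaling to total counts 0 rose and 1 fell with serum in control cells and 1 rose and 2 fell with serum in Lap2-depleted cells. Upper-quartile normalization gave 1 and 1 for serum in Lap2-depleted cells. The list medians were 0.23 and 0.22 for serum in control and Lap2-depleted cells.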
